A study of Mus musculus with 9 samples.

Results

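The genes described here are 55 genes of the cell cycle and of DNA replication, taken from the 30519 transcripts (1 per gene) of the deposited liver table by their gene symbol. They are read as 25 genes of the G1/S transition and of replication and 30 genes of G2/M and mitosis. Liver RNA was sequenced after polyA selection from 4 miR-122 knockout mice (KO) and 5 floxed littermate controls (titled WT), all 6 weeks old. The KO libraries came from 1 female (replicate 1) and 3 males (replicates 2 to 4), and the WT libraries from 3 females (replicates 1 to 3) and 2 males (replicates 4 and 5). Each library is 1 animal, and each liver was pulverised and split between crosslinking for an Argonaute experiment and the RNA-seq used here. The sources used here name neither the Cre that removed the floxed allele nor the cells it acts in. The comparison asked how these transcripts differ in abundance in a liver without miR-122, the most abundant microRNA of hepatocytes.

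A cell enters the cycle when D-type cyclins with Cdk4 or Cdk6, then E-type cyclins with Cdk2, release E2F factors from the pocket proteins. E2F targets include the MCM helicase, which is loaded at replication origins, and the enzymes that supply nucleotides. Genes of G2 and mitosis are switched on later by the MuvB complex with B-Myb and FoxM1, through a promoter element called CHR. Their promoters often hold CCAAT boxes as well, which a separate factor binds. Most hepatocytes of an adult liver are out of the cycle, although a young liver still grows and a fraction of its hepatocytes becomes polyploid.

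Reads recovered from the deposited values came to 15.3 to 22.0 M (mega reads) per KO library and 12.04 to 19.5 M per WT library on the listed transcripts, lowest in both WT males. The values are normalised abundances per transcript length, so they can be compared between genes. They sum to less in KO than in WT libraries. With every library scaled to equal totals the median log2 fold change of all 10950 transcripts tested moved from 0.03 to 0.36, so changes are read against these medians. All 10 hepatocyte markers had a mean of at least 1, and their summed level ranged from 49544 to 117284 per library. In a bulk liver sample, more cycling cells and more RNA per cycling cell cannot be told apart.

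The promoters of the 2 groups of members hold different words. RefSeq promoters (GRCm38.p6, 250 bases before to 50 after the start) were matched for 44 of the 55 members, 24 of G2/M and 20 of G1/S. The words searched on both strands were, for CHR, TTTGAA or its variant form TTCGAA, and CCAAT itself for the CCAAT box. For E2F they were TTTGGCG, the second form TTTCGCG, the third form TTTCCCG and the last form TTTGCCG. A CHR word was present in 18 of 24 G2/M promoters (75%) and in 3 of 20 G1/S promoters (15%), against 19.5% of all 27025 promoters of this length. CCAAT stood in 21 of 24 G2/M promoters (87.5%) and in 10 of 20 G1/S promoters (50%), against 38.0% of all. Both a CHR word and at least 2 CCAAT words occurred in 12 of 24 G2/M promoters (50%) and in 1 of 20 G1/S promoters (5%), against 2.42% of all. E2F words ran the other way, with 7 of 20 G1/S promoters (35%), 4 of 24 G2/M promoters (16.7%) and 6.84% of all. For 8063 of these promoters the gene was among the transcripts tested. There the shares were 14.0% for CHR, 39.6% for CCAAT, 2.38% for CHR with at least 2 CCAAT, and 11.1% for E2F. A match is a run of letters and not a shown binding site. E2F words can overlap each other on opposite strands.

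The promoter stretches of 5 G2/M members are shown for their CCAAT words, which in 4 of the 5 stand beside a CHR word, with those words in capitals on whichever strand they lie. All run 5′ to 3′ on the strand of the gene and end at the base before the start site. The Cdk1 stretch is chr10:69352913-69353012, minus strand, with 2 CHR and 2 CCAAT words. Ube2c is shown at chr2:164769829-164769928, plus strand, with 1 CHR and 2 CCAAT words. Top2a lies at chr11:99024190-99024299, minus strand, with 1 CHR and 3 CCAAT words. The Cdc20 stretch, chr4:118437344-118437423, minus strand, holds 1 CHR and 2 CCAAT words. Ccnb2, at chr9:70421555-70421654, minus strand, has 3 CCAAT words here, and its CHR words fall outside the stretch.
Cdk1: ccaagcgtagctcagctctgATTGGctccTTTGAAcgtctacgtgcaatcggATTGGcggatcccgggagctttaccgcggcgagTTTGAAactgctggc
Ube2c: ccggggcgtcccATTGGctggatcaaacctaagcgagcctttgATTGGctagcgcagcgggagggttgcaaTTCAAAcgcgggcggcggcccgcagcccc
Top2a: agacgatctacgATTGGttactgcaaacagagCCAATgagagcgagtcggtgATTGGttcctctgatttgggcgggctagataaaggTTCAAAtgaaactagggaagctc
Cdc20: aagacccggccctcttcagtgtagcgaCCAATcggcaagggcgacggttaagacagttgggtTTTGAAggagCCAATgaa
Ccnb2: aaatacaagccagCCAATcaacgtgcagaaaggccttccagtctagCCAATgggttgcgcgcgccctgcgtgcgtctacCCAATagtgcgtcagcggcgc

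The 2 G1/S stretches shown are those of the MCM genes that differed most between the genotypes, with E2F words in capitals. Mcm6 (chr1:128359706-128359825, minus strand) holds 3 E2F words, 2 of which overlap. Mcm5 (chr8:75109339-75109408, plus strand, a stretch further upstream of the start) holds 2, which overlap as well. E2F words did not follow the differences across the MCM genes. The promoter of Mcm2, also higher in KO, had 0, and those of Mcm3 and Mcm7, whose differences did not pass the test below, had 2 each.
Mcm6: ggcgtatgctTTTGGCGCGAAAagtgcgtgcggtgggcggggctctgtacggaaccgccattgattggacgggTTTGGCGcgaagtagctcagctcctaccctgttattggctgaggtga
Mcm5: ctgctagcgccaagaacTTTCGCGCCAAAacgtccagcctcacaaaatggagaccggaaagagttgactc

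**Figure D1:**
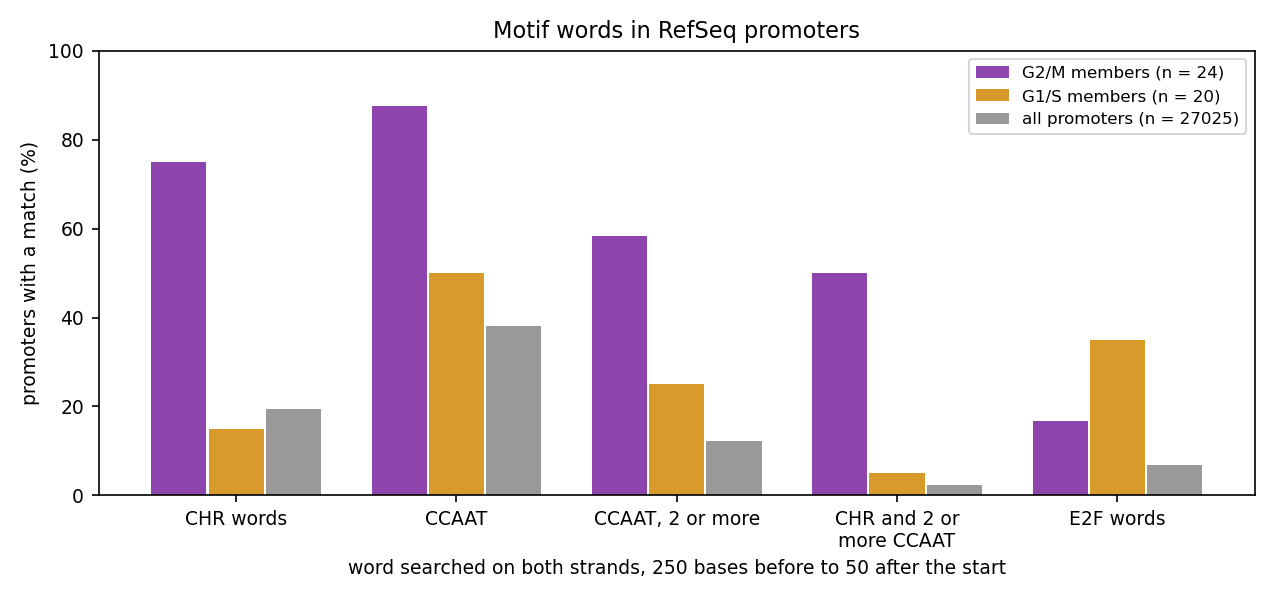
Share of promoters (percent, y axis) with each word or pair of words (x axis) among 24 G2/M members, 20 G1/S members and all 27025 RefSeq promoters. CHR words stood in 75% of the G2/M promoters and 15% of the G1/S promoters, and E2F words in 16.7% and 35%.

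Mitotic genes were higher in KO livers, with a KO mean above the WT mean for 29 of 30. Of the 30 G2/M members, 20 reached the minimum mean of 1 for the main fit, where 16 rose and 1, Cks2, fell (limma on log2(value + 1), Benjamini-Hochberg adjusted p of at most 0.05). In that fit 21.4% of all transcripts were higher and 14.5% lower in KO. Since 5 of the 20 passed the filter with a WT mean under 1, the count of all 30 members in a fit of every transcript with a mean of at least 0.1 is given as well. There, 23 of 30 rose and 1 fell, against 19.9% higher and 10.4% lower of all 15413 transcripts. By the q of the authors' deposited table, 20 of 30 were higher and 1 lower, against 13.6% and 11.6% of all transcripts with a q. The median log2 fold change of the 20 members was 1.08, beside 0.03 for all transcripts tested, and 1.32 beside 0.36 at equal totals.

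On the log2(value + 1) scale of the main fit, Cdk1 (1.57) and its cyclin Ccnb2 (1.42) were among the largest log2 fold changes of the G2/M members. Ccna2 (1.13) and Ccnb1 (1.06) lay near the median there. This order depends on the scale. In the fit with the lower limit, on log2(value + 0.1), Ccnb1 was at 2.42, Ccnb2 at 1.89, Cdk1 at 1.86 and Ccna2 at 1.61. Ccnb1 did not pass in that fit either (limma adjusted p = 0.105). Cdk1, the mitotic kinase, stood at 17.3, 5.86, 10.4 and 10.3 in KO replicates 1 to 4 and at 4.90, 1.72, 2.75, 2.93 and 2.31 in WT replicates 1 to 5. Every KO library lay above every WT library, with means of 10.99 ± 4.74 (SD, n = 4) and 2.92 ± 1.20 (SD, n = 5), a 3.76-fold difference (limma adjusted p = 0.00241). Ccnb2, a B-type cyclin that activates Cdk1, was at 7.92, 2.82, 6.21 and 5.998 in KO livers and at 2.14, 1.09, 1.37, 1.61 and 0.951 in WT livers. The groups again did not overlap, and the means differed 4.002-fold (adjusted p = 0.00154). For Ccna2, cyclin A of S phase and G2, KO libraries spanned 1.80 to 7.24 and WT libraries 0.723 to 2.79. WT replicate 1 lay above KO replicate 2 here, and the 3.20-fold difference passed the test (adjusted p = 0.0199). Ccnb1, the other main B-type cyclin, was at 4.07, 1.15, 4.15 and 1.51 in KO livers and at 2.18, 0, 0.349, 1.84 and 0 in WT livers. It was listed at 0 in WT replicates 2 and 5, and its log2 fold change of 1.06 ± 0.44 (SE) did not pass (adjusted p = 0.0871). Leaving out WT replicate 1 brought Ccnb1 past the threshold (adjusted p = 0.0426).

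The small Cdk-binding subunits Cks1b and Cks2 went in opposite directions. Cks1b, which also helps to target the inhibitor p27 for degradation, stood at 10.1, 5.47, 6.29 and 8.56 in KO and at 4.19, 3.94, 4.87, 3.68 and 4.90 in WT libraries. No WT library reached the lowest KO library, and the means differed 1.76-fold (adjusted p = 0.00941). Cks2 was the most abundant G2/M member, at 41.9, 25.8, 27.1 and 35.5 in KO and at 36.9, 41.5, 46.1, 46.3 and 49.3 in WT. KO replicate 1 lay inside the WT range, and the KO mean of 32.6 ± 7.52 was below the WT mean of 44.0 ± 4.88 (log2 fold change -0.44 ± 0.15 SE, adjusted p = 0.0427). This call was not stable: Cks2 passed in 7 of 19 alternative fits, and did not pass at equal totals, with sex as a covariate, or when any 1 of KO replicates 2 to 4 or WT replicates 2 to 5 was left out.

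Ube2c, Mad2l1 and Cdc20, which act with the anaphase-promoting complex, rose. Ube2c, the ubiquitin-conjugating enzyme of the anaphase-promoting complex, was at 13.8, 4.57, 7.84 and 8.45 in KO livers and at 3.29, 1.60, 1.00, 2.35 and 1.75 in WT livers. This was the largest log2 fold change of the members in the main fit, 1.65 ± 0.29 (SE), with no overlap (adjusted p = 0.00187). Mad2l1, a spindle checkpoint protein that restrains that complex, had the smallest adjusted p of the members (0.000701). Its KO values were 8.25, 4.49, 6.51 and 6.95, and its WT values 2.98, 2.67, 2.35, 2.07 and 1.58, a 2.81-fold difference without overlap. Cdc20, the activator that Mad2l1 holds, averaged 5.89 ± 3.33 in KO and 1.79 ± 1.31 in WT (adjusted p = 0.0231). The checkpoint kinases Bub1 and Bub1b lay below the main filter. Bub1 averaged 1.11 ± 0.534 in KO and 0.248 ± 0.161 in WT, and Bub1b 1.21 ± 0.542 and 0.431 ± 0.232. Both were higher in KO by the authors' deposited table (Bub1 q = 0.00726, Bub1b q = 0.0109).

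Among genes for proteins of chromosomes and chromatin, Top2a, Mki67, Hmgb2 and Cenpa passed the main test, and the kinetochore motor gene Cenpe, below its filter, did not pass with the lower limit (adjusted p = 0.0787). Top2a, the topoisomerase that untangles sister chromatids, was at 7.04, 1.92, 4.48 and 3.20 in KO and at 2.08, 0.735, 0.808, 1.08 and 0.863 in WT libraries. Only WT replicate 1 reached into the KO range, just above KO replicate 2, and the means differed 3.74-fold (adjusted p = 0.00813). Mki67, the Ki-67 protein that coats mitotic chromosomes and serves as a proliferation marker, stood at 5.78, 1.47, 3.61 and 2.55 in KO and at 1.89, 0.511, 0.804, 0.943 and 0.745 in WT. The same single overlap was seen, with a 3.42-fold difference (adjusted p = 0.0160). Hmgb2, a chromatin protein of dividing cells, was at 11.98, 7.13, 9.82 and 10.8 in KO and at 6.25, 6.30, 4.96, 5.89 and 5.07 in WT. Its groups did not overlap (1.74-fold, adjusted p = 0.00377). Cenpa, the histone H3 variant of centromeres, was at 5.67, 3.02, 4.92 and 4.26 in KO and at 3.22, 2.03, 2.59, 2.46 and 2.63 in WT. WT replicate 1 lay above KO replicate 2, and the 1.73-fold difference passed here (adjusted p = 0.0138) but not by the q of the authors' deposited table (0.0761).

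Among spindle genes the most abundant was Stmn1, which destabilises microtubules. Its values were 55.6, 25.5, 38.5 and 39.6 in KO and 19.9, 9.90, 13.9, 16.7 and 12.2 in WT livers. All KO libraries lay above all WT libraries (2.74-fold, adjusted p = 0.00173). Birc5, survivin of the chromosomal passenger complex, was at 11.7, 3.66, 6.06 and 7.03 in KO and at 4.19, 0.731, 1.76, 1.74 and 1.26 in WT. WT replicate 1 exceeded KO replicate 2, and the means differed 3.67-fold (adjusted p = 0.00849). Nusap1, which bundles spindle microtubules, was at 4.51, 1.41, 2.13 and 2.07 in KO and at 0.934, 0.342, 0.380, 0.669 and 0.687 in WT, without overlap (4.20-fold, adjusted p = 0.00502). The motor Kif11 averaged 2.07 ± 0.968 in KO and 0.742 ± 0.369 in WT (adjusted p = 0.0230). Plk1, the polo-like kinase, averaged 1.82 ± 0.921 and 0.477 ± 0.539 (adjusted p = 0.0247), and 1.40 of WT replicate 1 lay far above the other WT values of 0.142 to 0.502.

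The spindle kinase Aurka and the motor Kif20a did not pass the main test. Aurka was at 5.35, 2.35, 3.02 and 2.69 in KO and at 2.30, 1.40, 1.72, 1.96 and 2.38 in WT. WT replicate 5 lay just above KO replicate 2, and the log2 fold change was 0.53 ± 0.19 (SE, adjusted p = 0.0557), which passed without KO replicate 2 (0.0399). Kif20a was at 5.95, 1.78, 2.92 and 0.0320 in KO and at 2.20, 0.479, 0.634, 1.22 and 0.808 in WT. The low value of KO replicate 4 decided this result: the log2 fold change was 0.58 ± 0.48 (SE, adjusted p = 0.377) with it and 1.09 without it (adjusted p = 0.0376). The table holds 1 transcript per gene, so a value near 0 in 1 library can be the estimate of 1 isoform.

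**Figure D2:**
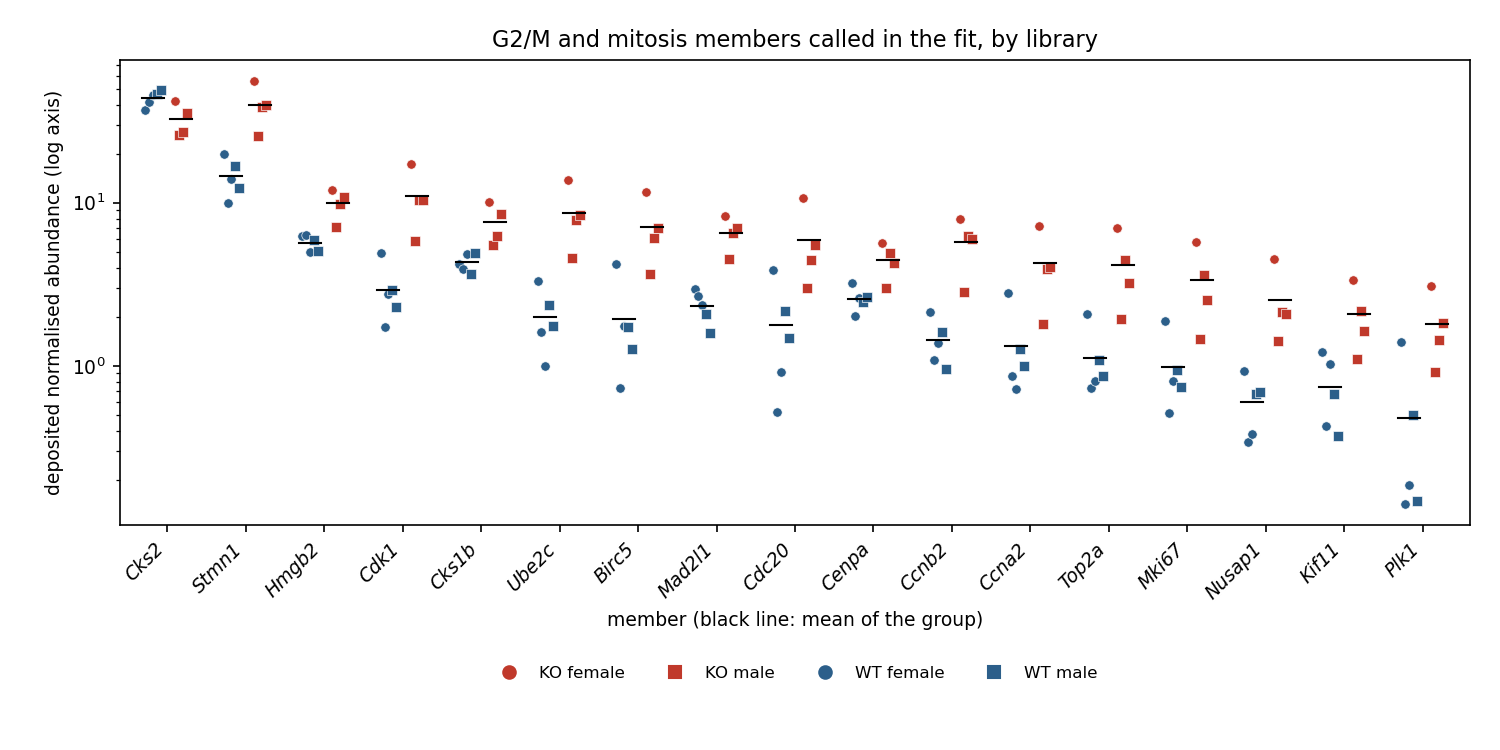
Deposited normalised abundance (log axis) of the 17 G2/M members called in the main fit, 1 point per library, circles for females and squares for males, black lines for group means. The KO mean lies above the WT mean for all of them except Cks2, and KO replicate 1 is the highest KO point in each of the 17.

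The other 10 G2/M members had a mean under 1 and are read from the fit with the lower limit, on log2(value + 0.1). There, 7 of the 10 rose: Kif23, Bub1, Foxm1, Cdc25b, Bub1b, Cenpf and Aurkb. Kif23, a motor of the central spindle, averaged 1.26 ± 0.469 in KO and 0.323 ± 0.168 in WT, with no overlap (q = 0.00085 in the authors' deposited table). Foxm1, a factor that switches on mitotic genes, averaged 0.915 ± 0.420 and 0.252 ± 0.143, also without overlap (q = 0.0139 there). Cenpf, a kinetochore protein, averaged 0.775 ± 0.513 and 0.207 ± 0.118 (q = 0.00607 there). Cdc25b, a phosphatase that activates Cdk1, and Aurkb, the kinase of the passenger complex, did not pass in that table (q = 0.108 and q = 0.0779). Cenpe, Tpx2 and Prc1 did not pass in either, with ratios of means from 2.65 to 3.33. Tpx2 was at 0.00133 in KO replicate 2 and 0 in WT replicate 5, and Prc1 was listed at 0 in WT replicate 2 and close to 0 in WT replicate 5. These low members rest on few reads: the median over libraries was 7.89 normalised reads for Aurkb and at most 61.1 for any of the 10.

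**Figure D3:**
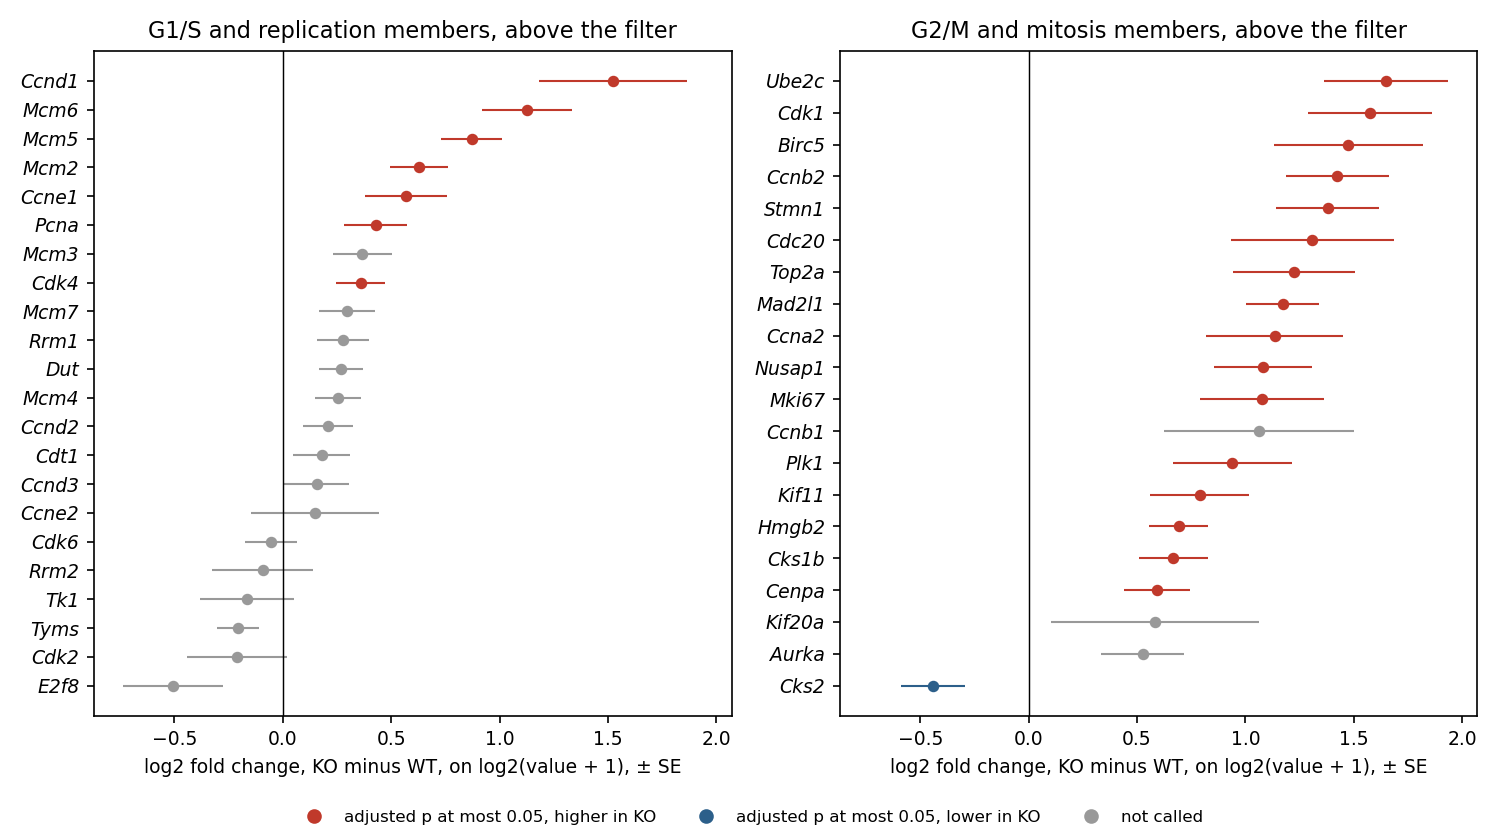
Log2 fold change, KO minus WT, on the log2(value + 1) scale with its SE (x axis) for the 22 G1/S and the 20 G2/M members in the main fit. G2/M members centre on a median of 1.08 and G1/S members on 0.26, and Cks2 is the only member called lower.

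Among the 25 genes of replication and G1/S, the largest differences were those of cyclin D1 and of MCM subunits. Of the 25 members, 22 entered the main fit, where 7 rose (Mcm5, Mcm6, Mcm2, Ccnd1, Cdk4, Ccne1 and Pcna), 15 did not pass and none fell, against the 21.4% and 14.5% above. Of the 22, 6 had a negative log2 fold change. In the main fit the count lower was 0 at an unadjusted p under 0.05 as well. At that unadjusted limit 1 member was lower in the limma fit with a mean of at least 0.1. Voom on recovered reads and the deposited test also had 1 each. After adjustment all of these called 0 lower. With a WT mean under 1, 3 of the 22 passed the filter through the KO group (Mcm5, Mcm6 and Ccne1). The q of the authors' deposited table called 5 of 25 higher and none lower, and the fit with the lower limit called 8 higher and none lower. The median log2 fold change was 0.26 beside 0.03 for all transcripts, and 0.56 beside 0.36 at equal totals, where 14 of 22 rose beside 4926 of all 10950 transcripts. Whether the 2 groups of members differ from each other was not tested.

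Within the MCM helicase the subunits differed in size of change. Mcm6 was at 4.80, 1.62, 3.18 and 2.66 in KO livers and at 1.17, 0.611, 0.696, 0.816 and 0.682 in WT livers. No overlap was seen, and the means differed 3.85-fold (limma adjusted p = 0.00253). Mcm5 was at 2.99, 1.64, 2.81 and 1.99 in KO and at 1.01, 0.682, 0.725, 0.902 and 0.751 in WT (2.90-fold, no overlap, adjusted p = 0.00123). Mcm2 was at 2.74, 1.74, 2.65 and 1.90 in KO and at 1.43, 1.19, 0.976, 0.818 and 1.08 in WT, a 2.05-fold difference without overlap (adjusted p = 0.00550). The remaining subunits Mcm3, Mcm4 and Mcm7 had ratios of 1.45, 1.31 and 1.29 with overlapping groups and adjusted p of 0.0625, 0.0923 and 0.1004. Mcm4 and Mcm7 form the core of the same hexamer as Mcm6, and Mcm3 pairs with Mcm5. On the log2(value + 1) scale Mcm6 differed by 1.13 ± 0.21 (SE) and Mcm4 by 0.25 ± 0.11 (SE).

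Pcna, the sliding clamp of the replication fork, was at 44.3, 29.9, 34.0 and 37.2 in KO and at 25.7, 30.5, 32.1, 24.3 and 21.3 in WT. KO replicate 2 lay inside the WT range, and the 1.36-fold difference passed narrowly (adjusted p = 0.0427). It did not pass in 10 of 19 alternative fits, among them 6 that left out 1 library (KO replicate 1, 3 or 4, WT replicate 1, 4 or 5), with an adjusted p of up to 0.172. The origin-licensing factor Cdt1 averaged 2.05 ± 0.264 in KO and 1.71 ± 0.433 in WT and did not pass. Cdc6, which loads MCM with Cdt1, and Gins2, a subunit of the active helicase, were below 1. Cdc6 was listed at 0 in KO replicate 4 and Gins2 at 0 in KO replicate 1, and neither passed with the lower limit. The annotation lists named pseudogenes for Pcna (2) and for Tyms, Ccnd3, Ccnb1 and Ccnb2 (1 each), so reads of these genes may be shared with near-identical copies.

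Tk1, Rrm2, Rrm1, Tyms and Dut, enzymes of nucleotide supply, did not pass the main test. Tk1, thymidine kinase, was at 13.8, 6.56, 7.89 and 6.83 in KO and at 7.62, 10.5, 12.6, 10.2 and 7.62 in WT. KO replicate 1 was the highest of all 9 libraries and the other KO livers lay in the lower part of the WT range or below it, with a log2 fold change of -0.17 ± 0.22 (SE, adjusted p = 0.584). The sign of Tk1 turned at equal totals, as the closing section gives. Rrm2, the regulated subunit of ribonucleotide reductase, averaged 6.49 ± 2.96 in KO and 6.71 ± 1.44 in WT, and its partner Rrm1 5.15 ± 0.769 and 4.07 ± 0.624 (1.27-fold, adjusted p = 0.0962). Tyms, thymidylate synthase, averaged 4.08 ± 0.407 and 4.88 ± 0.584 (adjusted p = 0.123). Dut, which removes dUTP, was at 13.7, 10.9, 11.7 and 10.72 in KO and at 8.004, 10.67, 9.83, 9.07 and 10.4 in WT. Although every KO library lay above every WT library, the 1.23-fold difference did not pass (adjusted p = 0.0683). Rrm1 and Dut were called higher at equal totals, together with all 6 MCM genes. Among all transcripts of the main fit, 19% had every KO library above every WT library and 12.1% the reverse.

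Among the G1 cyclins, cyclin D1 stood apart. Ccnd1 was at 38.2, 46.6, 45.7 and 37.3 in KO livers and at 23.9, 21.7, 16.4, 9.26 and 6.19 in WT livers. The groups were far apart (2.71-fold, log2 fold change 1.52 ± 0.34 SE, adjusted p = 0.00723). Both WT males lay below the 3 WT females, of which WT replicate 3 (16.4) has a column named male. KO replicate 1, the female, lay among the KO males. The WT males also had the fewest recovered reads, so sex and depth cannot be told apart here. Ccnd2 and Ccnd3, the other D-type cyclins, did not pass. Ccnd3 was at 9.36, 11.4, 10.8 and 11.4 in KO and at 9.88, 13.8, 7.54, 8.40 and 8.88 in WT, with overlapping groups (adjusted p = 0.455). Ccnd2 averaged 1.72 ± 0.284 and 1.35 ± 0.249 (adjusted p = 0.188).

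Cdk4, the kinase of the D-type cyclins, was at 21.3, 27.3, 27.6 and 29.0 in KO and at 21.7, 23.6, 18.9, 18.7 and 18.4 in WT. KO replicate 1 lay inside the WT range, and the 1.30-fold difference (adjusted p = 0.0313) did not pass in 8 of 19 alternative fits, with an adjusted p of up to 0.102. In 6 of these 8 a single library was left out (KO replicate 2, 3 or 4, WT replicate 3, 4 or 5). Ccne1, the E-type cyclin that activates Cdk2, was at 2.23, 0.925, 1.28 and 1.81 in KO and at 0.653, 0.379, 0.457, 1.11 and 0.993 in WT. Both WT males overlapped KO replicate 2, and the 2.17-fold difference (adjusted p = 0.0417) did not pass in 12 of 19 alternative fits. Leaving out KO replicate 1, 3 or 4 or WT replicate 1, 2 or 3 ended the call, and in males alone the log2 fold change was 0.17 (adjusted p = 0.581). Cdk2, Cdk6 and Ccne2 had ratios of 0.841, 0.934 and 1.13 and adjusted p of 0.510, 0.748 and 0.728.

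The E2F factors among the members had ratios on both sides of 1. E2f1, an activator, averaged 1.34 ± 0.489 in KO and 0.531 ± 0.188 in WT, with all KO libraries above all WT libraries. It rose in the fit with the lower limit (limma adjusted p = 0.0174) but not by the authors' deposited table (q = 0.586). E2f8, a repressor of E2F targets that is known for its part in hepatocyte polyploidy, averaged 1.58 ± 0.893 in KO and 2.61 ± 0.742 in WT (adjusted p = 0.114). KO replicate 3, at 2.92, lay within the WT values. The other 3 KO livers lay between 1.04 and 1.20, below all WT livers. E2f8 was called lower when KO replicate 3 or WT replicate 5 was left out.

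**Figure D4:**
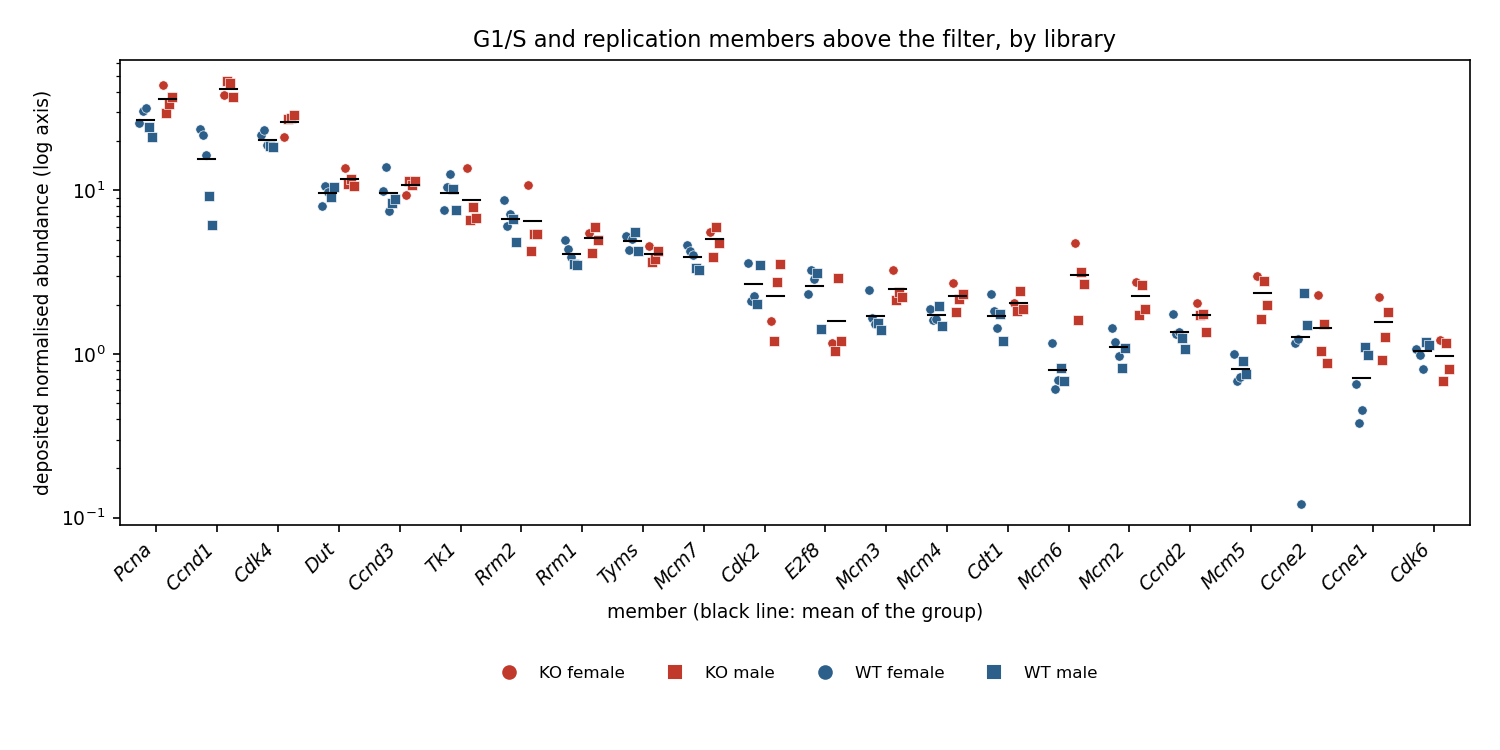
Deposited normalised abundance (log axis) of the 22 G1/S and replication members in the main fit, 1 point per library, circles for females and squares for males, black lines for group means. Ccnd1, Mcm2, Mcm5, Mcm6 and Dut show KO points wholly above WT points, and the nucleotide enzymes Tk1, Rrm2 and Tyms overlap.

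The level of the mitotic genes differed between animals of 1 genotype as well. KO replicate 1, the only KO female, was the highest KO library for 28 of 30 G2/M members, and KO replicate 2 the lowest for 27. WT replicate 1 was the highest WT library for 24 of 30. Relative to the WT mean, the median ratio over the 30 G2/M members was 5.49, 1.67, 3.00 and 2.80 in KO replicates 1 to 4 and 1.79, 0.660, 0.820, 1.02 and 0.755 in WT replicates 1 to 5. WT replicate 1 and KO replicate 2 were thus at a similar level, and WT replicate 1 lay above the lowest KO library for 17 of 30. For 12 of 30 members every WT library lay below every KO library, and for 23 of 30 when WT replicate 1 was set aside. Among the 20 G2/M members of the main fit, with all libraries kept, it was 8, beside 19% of all transcripts of that fit. No share of all transcripts was computed to set beside the counts of 30. G1/S members varied less: the same median ratios ran from 1.09 to 1.43 in KO and from 0.865 to 1.22 in WT, with WT replicate 1 again highest of the WT libraries. The members share their libraries, so these counts describe animals and not independent genes. Leaving out KO replicate 1 alone kept 13 of the 16 G2/M genes called higher, and Cdc20, Plk1 and Kif11 no longer passed. Leaving out both KO replicate 1 and WT replicate 1, a choice made after seeing the data, kept all 16. Among males alone (3 KO and 2 WT) 7 of the 16 stayed called: Ccnb2, Cdk1, Mad2l1, Birc5, Ube2c, Stmn1 and Nusap1. With sex as a covariate all 16 were called.

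**Figure D5:**
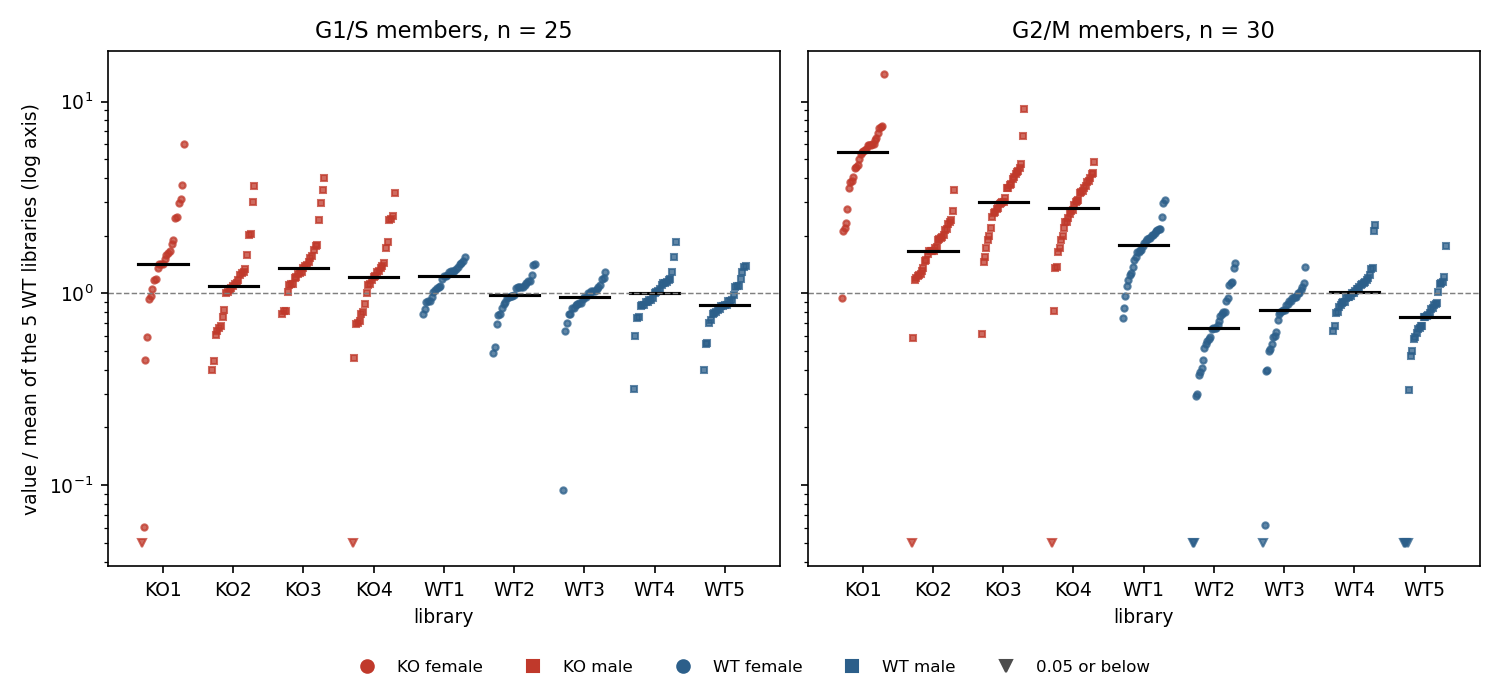
Ratio of each member's value to the mean of the 5 WT libraries (log axis), by library, for 25 G1/S and 30 G2/M members, with black lines at the medians and triangles for ratios of 0.05 or below. The G2/M medians are highest in KO replicate 1 (5.49), and KO replicate 2 (1.67) lies beside WT replicate 1 (1.79).

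Further cell cycle genes outside the 55 moved in the same main fit as follows. Of 31 other mitosis genes tested, 16 rose and none fell (median log2 fold change 0.54), with 1 lower at an unadjusted p under 0.05 in limma. Some of the 31, Cdca3 among them, passed the filter with a WT mean under 1. With the lower limit 30 of 52 rose, beside 19.9% of all transcripts. None fell there after adjustment, and 2 were lower at an unadjusted p under 0.05. By the deposited q 18 of 51 were higher and 1 lower, beside 13.6% and 11.6% of all transcripts with a q. In the main fit the smallest adjusted p of the 31 belonged to Cdca3, which helps to degrade Wee1. It stood at 4.88 ± 1.63 in KO and 0.614 ± 0.449 in WT. The tubulins Tubb5 (37.0 ± 6.69 and 19.5 ± 2.13) and Tuba1b (75.1 ± 17.0 and 37.4 ± 3.91) followed. Cdc25a, a phosphatase that activates Cdk2 and Cdk1, stood at 3.70 ± 0.547 and 2.07 ± 0.163. Of 30 other origin and fork genes, 8 rose (median 0.17), a share near that of all transcripts. Pold2, Rpa2, Orc2 and Lig1, which act in DNA synthesis, single-strand binding, origin recognition and ligation, were 1.71-fold, 1.59-fold, 1.78-fold and 3.71-fold higher.

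Genes that restrain or drive the cycle from outside the 55 are read against the same 21.4% higher and 14.5% lower. Of 6 CDK inhibitor genes tested, 3 rose and none fell (median 0.41). Cdkn3, a phosphatase that acts on Cdks, stood at 5.37 ± 2.30 in KO and 1.93 ± 0.690 in WT (adjusted p = 0.0189), and Cdkn2c and Cdkn1b were 1.29-fold and 1.35-fold higher. Cdkn1a, p21, averaged 8.16 ± 1.55 and 6.69 ± 3.71 and did not pass (chosen for mention after its values were seen). Of 13 pocket protein, E2F and DREAM genes, 3 rose and none fell: Lin37 of the MuvB core, the pocket protein gene Rbl1 and the E2F partner Tfdp2 (1.75-fold, 2.22-fold and 1.42-fold). Of 10 checkpoint and p53-linked genes, 4 rose and none fell. For these 3 lists limma gave 0 lower at an unadjusted p under 0.05 too, and voom and the deposited test called 0 lower after adjustment. Unadjusted, voom and the deposited test each had 1 lower gene in the checkpoint list and 0 in the other lists. By the q of the authors' deposited table fewer were higher: 1 of 6 CDK inhibitor genes (Cdkn3), 2 of 17 pocket protein, E2F and DREAM genes (Rbl1 and Tfdp2) and 1 of 14 checkpoint genes (Ccng1), beside 13.6% of all transcripts with a q. Ccng1, cyclin G1, a known miR-122 target, was at 41.5 ± 3.57 and 19.8 ± 2.06 (adjusted p = 4.26e-05), Mdm2 was 1.57-fold, Chek2 1.63-fold and Trp53 1.97-fold higher. Of 11 G1 driver genes, Cdc25a and Myc rose and Ccnc fell, and in the authors' deposited table Cdc25a was higher and Ccnc lower. The shares higher of the pocket protein and G1 driver lists are near that of all transcripts. Myc averaged 4.12 ± 3.35 in KO and 0.712 ± 0.423 in WT, with KO values from 0.687 to 8.33.

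Markers of cells other than hepatocytes moved with the genotype as well, and their part in the mitotic differences was not tested. All 9 Kupffer cell markers rose, with summed levels of 434 to 543 in the KO and 230 to 317 in the WT group. Of 6 monocyte and macrophage markers tested 5 rose (232 to 255 against 96.4 to 114), and all 9 stellate cell and fibroblast markers rose (106 to 130 against 29.7 to 39.2). Of 7 cholangiocyte markers 6 rose (33.6 to 52.6 against 5.97 to 7.47). The lymphocyte list was low, with 3 of 12 genes tested (summed levels of 13.0 to 19.4 against 5.61 to 11.6). Its 1 gene called higher was Ptprc, which is shared by leukocytes in general and is not particular to lymphocytes. Ptprc averaged 5.55 in KO and 1.62 in WT and is part of these sums. Trbc2 and Cd79b did not pass. Of 3 neutrophil markers 2 rose (58.2 to 131 against 11.5 to 67.1), and of 6 erythroid markers 3 rose (1616 to 3026 against 1142 to 1858). Those 3 were the globin genes Hbb-bt, Hba-a1 and Hba-a2. The globin Hbb-bs (1.42-fold) and the precursor genes Alas2 (0.965-fold) and Klf1 (0.509-fold) did not pass. Among 8 endothelial markers 1 rose and 1 fell, and among 10 hepatocyte markers 1 rose and 2 fell. None of these markers was at 0 in all 9 libraries. KO replicate 1, highest for most mitotic genes, had the highest cholangiocyte sum of the KO libraries (52.6) and the lowest monocyte and macrophage sum (232). Its cholangiocyte sum held 25.9 from Prom1 alone, and without Prom1 it was 26.7, inside the 24.5 to 30.1 of the other KO libraries. WT replicate 1 had the highest sums of the WT libraries for Kupffer cell markers (317), monocyte and macrophage markers (114) and the lymphocyte list (11.6, Ptprc included).

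Seed matches to miR-122 in the annotated 3′ UTRs (GENCODE M21, GRCm38) were about as frequent among these genes as in the table as a whole. Of 54 members with a 3′ UTR of at least 50 bases, 13 (24.1%) held at least a 6-base match, against 24.3% of 17820 genes, and 6 (11.1%) held a match of 7 or 8 bases, against 13.1%. By group, 7 of 24 G1/S and 6 of 30 G2/M members held any match. The 8-base match of Cdc6 (chr11:98922091-98922098, plus strand) and the 7-base matches of Ccnd2 (chr6:127127331-127127337, minus strand) and Nusap1 (chr2:119649573-119649579, plus strand) are shown with the match in capitals, since they pair with all of bases 2 to 8 of the microRNA.
Cdc6: tttaagcagccACACTCCAtggtagcttag
Ccnd2: acttgacagacACACTCCcttgagttctt
Nusap1: acttgtctatcACACTCCtgtccctgaac
Of these 3, Nusap1 rose (4.20-fold), Ccnd2 did not pass (1.27-fold) and Cdc6 was at most 0.236 in any library. Cdk6 held 2 matches of 7 bases of the type that ends in an A, and Cdc25b and Cenpf 1 each. Ccnd1 had the largest difference among G1/S members on the log2(value + 1) scale, although Mcm6 exceeded it by ratio of means (3.85-fold against 2.71-fold). Ccnd1 held a single 6-base match.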

How the data were processed

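PolyA RNA of 4 KO and 5 WT livers was analysed from 1 deposited table of 30519 transcripts, grouped by the genotype and sex in the labels. The column of WT replicate 3 is named male, and its label, female, was kept. Kallisto and sleuth were used with mm10, per the submitters' processing notes, with no versions given. The per-library columns hold a normalised abundance signal per transcript length, as deposited by the authors, and are not TPM, the unit the design had foreseen, since their sums differ between libraries. The authors deposited a p-value and a q-value for 13540 transcripts, with a coefficient in natural log units that runs WT minus KO per its signs in the values; here it was turned to KO minus WT in log2. The choice of 1 transcript per gene is not explained there.

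Here, limma 3.58.1 (R 4.3.3) was fitted with a trend on log2(value + 1) to the 10950 transcripts with a mean of at least 1, with Benjamini-Hochberg adjustment over all of them at 0.05; every adjusted p in the text is from limma unless named otherwise. This scale understates changes of low transcripts, so ratios of means are given too. A second fit took a mean of at least 0.1 and a pseudocount of 0.1. The fit was tested on simulated data. Reads per library were recovered from the deposited mean observation and the step between low values, of which 56.2% to 71.6% came out whole within 0.1 read, so depths are estimates. The rule that picked among possible steps was made with the steps in view. No sampling interval was computed, because kallisto assigns reads in fractions.

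The members and lists were chosen with earlier results of these data known. Members named with values in every library are those called, up to 12 per group by adjusted p, and the 3 most abundant others of each group; Cks2, the only member called lower, was added after its values were seen. Members with a deposited q of at most 0.05 are given by value, and up to 4 called genes of each other list. Alternatives were other filters, pseudocounts, thresholds and scaling, each library left out, males alone, sex as a covariate, a replicate block and the deposited test. Voom on recovered reads and leaving out KO and WT replicate 1 together were added after seeing the data. Promoters came from RefSeq (GRCm38.p6), with the most upstream start where a gene had several, and 3′ UTRs from GENCODE M21. No genome sequence was used. The miR-122 transcript, its own sequence and 1 result on the origin and fork list are not reported here. Y-linked genes were not used. Litters are not named in the labels.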

Additional observations from a re-analysis of the deposited data

Results flagged for a closer look

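Top2a in the WT group was flagged because 1 animal stood apart from the other 4. WT replicate 1 was at 2.08, the next WT library at 1.08 and the lowest at 0.735, so the gap to the next library was 0.741 of the whole range. The limit for 5 samples is 0.71. This was 1 flag in 50 groups of values examined, where chance flags about 1 in 20 groups. WT replicate 1 was also the highest WT library for 24 of the 30 G2/M members.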

How the results depend on the processing

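Over the 19 alternative fits, 10 of the 19 members named by rule as called (Cks2 aside) stayed called throughout (Mcm5, Mcm6, Ccnd1, Mad2l1, Ccnb2, Stmn1, Ube2c, Cdk1, Nusap1 and Birc5). Mcm2, Hmgb2, Top2a, Cks1b and Mki67 were lost among males alone and nowhere else, and Cenpa there and in the deposited test. At equal totals 4926 of all transcripts were higher and 298 lower, 14 G1/S members were higher, the G2/M count lower was 0, and Tk1 turned to a log2 fold change of 0.19 (adjusted p = 0.530). Among males alone 1408 of all transcripts were higher and 808 lower, and 7 G2/M members were higher. At a threshold of 0.01 the counts were 1504 higher and 858 lower of all transcripts, 4 G1/S members higher, and 10 higher and 0 lower of G2/M. Cks2 was not called, so the G2/M count lower was 0, without a filter, with the replicate block, with sex as a covariate and by voom on recovered reads. Leaving out 1 library, or both replicates numbered 1, gave 4 to 8 higher and 0 to 1 lower G1/S members, with 4 higher without KO replicate 3 or KO replicate 4, and 13 to 17 higher and 0 to 1 lower G2/M members. The groups share replicate numbers, and the labels do not say whether these pair the animals. Deviations of same-numbered libraries correlated across genes at 0.23, 0.08, -0.18 and 0.11 for numbers 1 to 4. Differently numbered pairs ran from -0.27 to 0.23. With so few libraries these correlations cannot decide whether the animals were paired. With the replicate block, 2142 of all transcripts were higher and 1410 lower, and 5 G1/S and 17 G2/M members were higher. Depth limits the members under a mean of 1, 9 of which had fewer than 10 normalised reads in at least 1 library. Some members of the main fit also fell under 10 in their lowest library. These were Ccnb1 (0), Kif20a (1.77) and Ccne2 (5.41), not called, and Plk1 (4.74) and Birc5 (9.57), called higher.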
